A study of Mus musculus with 6 samples.

Results

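The glucocorticoid receptor gene Nr3c1 and 7 genes known as its targets or as parts of its hormone supply were examined in mouse embryonic fibroblasts without cryptochrome proteins or with CRY1 or CRY2 put back. The other 7 genes were Tsc22d3, Fkbp5, Sgk1, Klf9, Zbtb16, Dusp1 and Hsd11b1. All 8 symbols were matched to an NCBI Gene identifier in the count files, which listed 27179 genes, and 6 of the 8 had enough counts for a test. The parental CPN-/- line carries knockouts of Cry1, Cry2, Per1, Per2, Nr1d1 and Nr1d2, which remove these circadian clock proteins. The CPN-/- CRY1 and CPN-/- CRY2 lines carry the same 6 knockouts and an exogenous mouse Cry1 or Cry2 driven by a viral promoter. Each of these lines was grown from a single colony after blasticidin selection, and differences between clones cannot be told apart from effects of the transgene. The cells were untreated, grew in DMEM with fetal bovine serum to near confluence, and the labels name no glucocorticoid. Each line had 2 libraries of polyadenylated RNA from independent RNA preparations.

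The glucocorticoid receptor is a nuclear receptor that waits in the cytoplasm in a complex with heat shock protein chaperones. After binding a glucocorticoid it enters the nucleus, where it induces genes with glucocorticoid response elements and represses many inflammatory genes. Its induced targets include regulators that dampen inflammatory signaling and Fkbp5, which feeds back on the receptor complex, and CRY proteins are known to bind the receptor and repress its activity.

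The libraries held 25957409 to 36106949 counts. Levels are given in CPM, which are counts scaled to library size with TMM factors, and each value of a group is the mean ± SD (n = 2). Cry1 stood at 165 and 190 CPM in the CPN-/- CRY1 libraries, against 115 to 125 CPM in CPN-/- and 48.3 to 51.0 CPM in CPN-/- CRY2. Cry2 stood at 349 and 351 CPM in the CPN-/- CRY2 libraries, against 129 to 136 CPM in CPN-/- and 50.7 to 51.7 CPM in CPN-/- CRY1. Transcripts of both genes were thus counted in CPN-/- too, so the knockouts of Cry1 and Cry2 do not show as absent mRNA, and endogenous and exogenous transcripts are not separated in these counts. Of 10 fibroblast markers, 9 exceeded 3 counts in some library, while Lum was nearly absent. Among the 9, Thy1 had 1 to 7 counts and was too low to test, and Dcn had 1 to 61 counts. Their summed levels were 11200 to 14100 CPM in CPN-/-, 13600 to 13900 CPM with CRY1 and 17400 to 17800 CPM with CRY2, and the markers did not move together. Pdgfra was at 92.7 and 71.9 CPM in CPN-/- and at 34.6 and 31.8 CPM in CPN-/- CRY1, where Tsc22d3 was also lowest. Pdgfrb went the other way, at 165 and 119 CPM in CPN-/- and 265 and 260 CPM in CPN-/- CRY1. Vim also rose, from 2380 and 3000 CPM to 3470 and 3490 CPM. The part of such differences in the results was not tested. With each list summed apart, the epithelial, endothelial and blood markers were at most 1.3, 0.815 and 2.14 CPM in any library. Epcam was at 0 in all 6, and Krt14 had 22 counts in CPN-/- CRY2 replicate 2 and none elsewhere. The 2 CPN-/- libraries differed more than those of the other lines, with an SD of the log2 difference over genes of 0.435, against 0.232 in CPN-/- CRY1 and 0.245 in CPN-/- CRY2. In CPN-/- this difference followed gene length, with a Spearman correlation across 12478 genes of 0.68 between merged exon length and the log2 ratio of replicate 1 to replicate 2. Genes are not independent replicates, and these correlations were -0.20 and 0.28 in CPN-/- CRY1 and CPN-/- CRY2. A change in the share of cells of a type and a change in RNA per cell cannot be told apart in these bulk libraries.

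In CPN-/- CRY1 cells against CPN-/- cells, Tsc22d3 mRNA fell 2.7-fold and Dusp1 mRNA rose 2.45-fold. In CPN-/- CRY2 cells Tsc22d3 fell 1.58-fold, and no other member passed the test. The receptor gene Nr3c1 was higher in all 4 CRY libraries than in both CPN-/- libraries, but neither comparison passed the test. Fkbp5 was lower in the same 4 libraries and did not pass either. Tests were by edgeR with a quasi-likelihood fit over all 6 libraries, and a gene was called at an adjusted p under 0.05. Of the 6 tested members, 1 was called higher and 1 lower in CPN-/- CRY1, where 11.2% and 13.1% of the 14069 tested genes were called higher and lower (24.3% in all). In CPN-/- CRY2, 0 were called higher and 1 lower, against 2.58% and 4.08% of all tested genes (6.66% in all). At an unadjusted p under 0.05, edgeR found 4 and 5 of the 6, against 40.3% and 24.4% of all tested genes. The Wald test of DESeq2 called 1 higher and 1 lower in CPN-/- CRY1, and 0 higher and 2 lower in CPN-/- CRY2. It called 18.5% and 6.4% of the 19741 genes with a p-value. Those include genes without an adjusted p, which could not be called, so the shares are lower limits. Both comparisons use the same CPN-/- libraries and are not independent of each other.

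**Figure D1:**
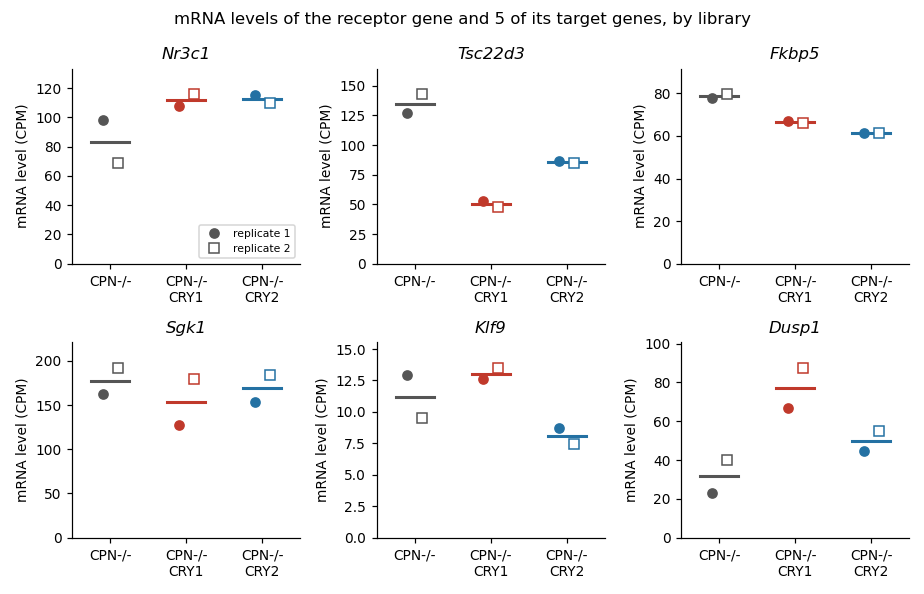
mRNA level in CPM on a linear axis from 0 for the 6 tested genes in each line, with filled circles for replicate 1, open squares for replicate 2 and a bar at the mean. Tsc22d3 falls from 127 and 143 CPM in CPN-/- to 47.7 and 52.5 CPM in CPN-/- CRY1, while the Sgk1 libraries of the 3 lines overlap.

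Nr3c1 (gene 14815) encodes the receptor and lies on chr18:39410545-39519421 of mm10, on the reverse strand, with 9 exons. In CPN-/- it stood at 98.1 and 68.8 CPM, in CPN-/- CRY1 at 108 and 116 CPM, and in CPN-/- CRY2 at 115 and 110 CPM. All 4 CRY libraries lay above both CPN-/- libraries, and the CRY lines overlapped each other. The log2 fold change was 0.42 (SE 0.16, adjusted p = 0.10) in CPN-/- CRY1 and 0.43 (SE 0.17, adjusted p = 0.17) in CPN-/- CRY2, and between the CRY lines it was -0.01 (SE 0.16, adjusted p = 0.98). The 2 CPN-/- libraries differed 1.43-fold from each other, more than those of CPN-/- CRY1 at 1.07-fold or CPN-/- CRY2 at 1.04-fold. With the trend with transcript length removed from each library, both values were 0.29 and both passed the test (adjusted p = 0.011 and 0.020). Without CPN-/- replicate 1 they were 0.70 and 0.71, and without replicate 2 they were 0.20 and 0.21, so the size of the difference rested on the choice of CPN-/- library.

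Over the 6 libraries, the genes whose log2 CPM followed Nr3c1 most closely were Mga, Tmem245 and Mastl, among 10929 genes averaging 100 counts or more per library. Their Pearson correlations with Nr3c1 were 0.999, 0.998 and 0.998, and 701 genes exceeded 0.95. The merged exons of the 3 genes measured 13.93, 16.02 and 5.59 kb, and those of Nr3c1 6.54 kb. Among the other members, the correlation with Nr3c1 was -0.82 for Fkbp5, -0.73 for Tsc22d3, -0.42 for Sgk1, 0.10 for Klf9 and 0.43 for Dusp1. These are descriptions over 6 libraries in 3 lines that share line and gene length effects.

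Hsd11b1 (gene 15483, chr1:193221640-193264045, reverse strand), whose enzyme regenerates active glucocorticoid from its inactive form, was barely detected. It had 2 counts in each CPN-/- library and 0 counts in the 4 CRY libraries. All 6 values were under the limit of 3 counts that a count of 0 allows, which is 0.083 to 0.115 CPM, so a difference was not detectable at this depth. This limit covers counting error only.

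Fkbp5 (gene 14229, chr17:28398753-28486149, reverse strand) encodes FKBP51, a co-chaperone that lowers the hormone affinity of the receptor. In CPN-/- it stood at 77.7 and 79.7 CPM, in CPN-/- CRY1 at 66.9 and 66.0 CPM, and in CPN-/- CRY2 at 61.3 and 61.5 CPM. The 3 lines did not overlap, and the CPN-/- CRY2 libraries were lowest. Against CPN-/-, the log2 fold change was -0.24 (SE 0.09, adjusted p = 0.084) in CPN-/- CRY1 and -0.36 (SE 0.09, adjusted p = 0.064) in CPN-/- CRY2, and between the CRY lines it was 0.11 (SE 0.09, adjusted p = 0.45). The 674 tested genes of chromosome 17 had medians of -0.06 and -0.13 against CPN-/-, which leaves -0.18 and -0.23 for Fkbp5. The part of this shift in the Fkbp5 difference was not tested. With the length trend removed the values were -0.41 and -0.53, and both passed (adjusted p = 0.022 and 0.017). DESeq2 called the CPN-/- CRY2 difference at -0.36 (adjusted p = 0.040).

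Tsc22d3 (gene 14605, chrX:140539528-140600522, reverse strand) encodes GILZ, a glucocorticoid-induced protein that restrains NF-kappaB and AP-1. In CPN-/- it stood at 127 and 143 CPM, in CPN-/- CRY1 at 52.5 and 47.7 CPM, and in CPN-/- CRY2 at 86.6 and 84.8 CPM. The means were 135 ± 11.3, 50.1 ± 3.39 and 85.7 ± 1.28 CPM. The 3 lines did not overlap, and CPN-/- CRY1 was lowest. The log2 fold change was -1.43 (SE 0.11, adjusted p = 0.00045) in CPN-/- CRY1 and -0.66 (SE 0.11, adjusted p = 0.013) in CPN-/- CRY2. The CRY lines themselves differed, since CPN-/- CRY1 held 1.71-fold less Tsc22d3 mRNA than CPN-/- CRY2 (log2 fold change -0.77, SE 0.11, adjusted p = 0.0046). Of all tested genes, 5.03% changed at least as much in CPN-/- CRY1 and 11.9% in CPN-/- CRY2. On the X chromosome, 446 tested genes had median log2 fold changes of 0.07 and 0.02 in these comparisons. The call in CPN-/- CRY1 held in 14 of 14 alternatives and that in CPN-/- CRY2 in 9 of 14, and it was lost with only the 4 libraries compared (adjusted p = 0.055) or without any 1 CRY library (adjusted p = 0.056 to 0.19). The difference between the CRY lines was called in 10 of 14 and lost without any 1 CRY library, at -0.84 to -0.70 (adjusted p = 0.053 to 0.083).

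Dusp1 (gene 19252, chr17:26505591-26508472, reverse strand) encodes a phosphatase that inactivates MAP kinases and is induced by both glucocorticoids and growth factors. In CPN-/- it stood at 22.9 and 40.2 CPM, in CPN-/- CRY1 at 66.8 and 87.5 CPM, and in CPN-/- CRY2 at 44.5 and 55.0 CPM. No lines overlapped, with CPN-/- lowest and CPN-/- CRY1 highest, although the 2 CPN-/- libraries differed 1.75-fold. Against CPN-/-, the log2 fold change of Dusp1 was 1.29 (SE 0.27, adjusted p = 0.017) in CPN-/- CRY1, and 0.66 (SE 0.27, adjusted p = 0.20) in CPN-/- CRY2. Between the CRY lines it was 0.63 (SE 0.27, adjusted p = 0.16), which did not pass. With a replicate block both did, at 0.70 in CPN-/- CRY2 (adjusted p = 0.032) and 0.63 between the CRY lines (adjusted p = 0.026), and CPN-/- CRY2 also passed with the length trend removed at 0.81 (adjusted p = 0.037). Leaving out a library gave 0.31 to 1.13 in CPN-/- CRY2, the lowest without CPN-/- replicate 1 and the highest without CPN-/- replicate 2. The call in CPN-/- CRY1 held in 11 of 14 alternatives and was lost without CPN-/- replicate 1 at 0.94 (adjusted p = 0.096), without CPN-/- CRY1 replicate 1 at 1.47 (adjusted p = 0.065) or without CPN-/- CRY1 replicate 2 at 1.09 (adjusted p = 0.13).

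Tsc22d3 and Dusp1, which both dampen inflammatory signaling, thus differed in opposite directions in the CPN-/- CRY1 line.

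Sgk1 (gene 20393, chr10:21882184-21999903, forward strand) encodes a kinase of ion transport and cell survival that responds to glucocorticoids and to serum. In CPN-/- it stood at 163 and 192 CPM, in CPN-/- CRY1 at 128 and 180 CPM, and in CPN-/- CRY2 at 154 and 184 CPM. The 3 lines overlapped, and the 2 libraries of a line differed by 1.18-fold to 1.41-fold. The log2 fold change was -0.21 (SE 0.18, adjusted p = 0.42) in CPN-/- CRY1, -0.07 (SE 0.18, adjusted p = 0.83) in CPN-/- CRY2 and -0.14 (SE 0.18, adjusted p = 0.68) between the CRY lines. Differences of this size were within the spread between replicates.

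Klf9 (gene 16601, chr19:23141226-23168129, forward strand) encodes a transcription factor that is induced by glucocorticoids and varies with the circadian clock. In CPN-/- it stood at 12.9 and 9.52 CPM, in CPN-/- CRY1 at 12.6 and 13.5 CPM, and in CPN-/- CRY2 at 8.71 and 7.41 CPM. CPN-/- CRY2 lay below both other lines, and CPN-/- CRY1 overlapped CPN-/-. The log2 fold change was 0.22 (SE 0.17, adjusted p = 0.37) in CPN-/- CRY1, and -0.48 (SE 0.18, adjusted p = 0.17) in CPN-/- CRY2. Without CPN-/- replicate 1 these were 0.45 (adjusted p = 0.0033) and -0.24 (adjusted p = 0.15), and without replicate 2 they were 0.03 (adjusted p = 0.88) and -0.67 (adjusted p = 0.00015). CPN-/- CRY2 also passed with the length trend removed, at -0.51 (adjusted p = 0.024). Between the CRY lines Klf9 was 1.62-fold higher in CPN-/- CRY1, with a log2 fold change of 0.69 (SE 0.17, adjusted p = 0.039). The 473 tested genes of chromosome 19 had a median log2 fold change of 0.46 in the same comparison, which leaves 0.23 for Klf9, and the part of this shift in the Klf9 difference was not tested. The call was lost without any 1 of the 4 CRY libraries (adjusted p = 0.14 to 0.27).

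Zbtb16 (gene 235320, chr9:48651797-48836225, reverse strand), a zinc finger repressor that glucocorticoids induce strongly in several tissues, had 1 count in CPN-/- CRY2 replicate 1 and 0 counts in the other 5 libraries. No level above 0.083 to 0.115 CPM was therefore shown in any line.

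**Figure D2:**
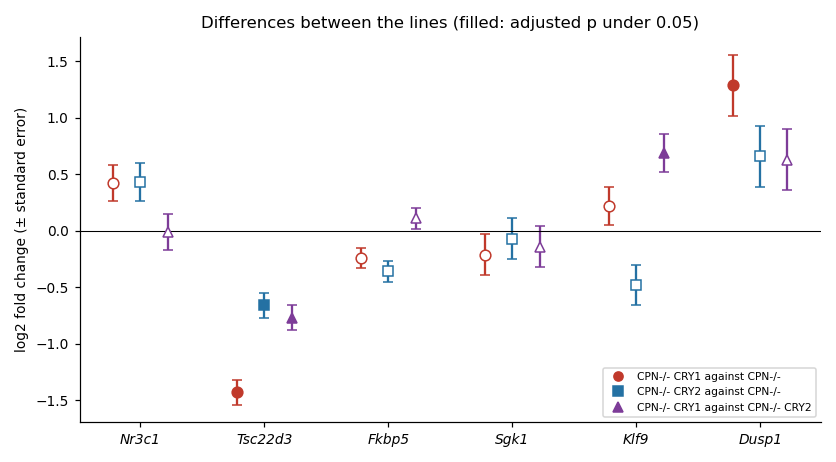
Log2 fold change with its standard error for the 6 tested genes in the 3 comparisons, filled where the adjusted p was under 0.05. Tsc22d3 is filled and below 0 in all 3, at -1.43, -0.66 and -0.77, while Dusp1 is filled in CPN-/- CRY1 against CPN-/- and Klf9 between the CRY lines.

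Between the CRY lines, 1 of the 6 tested members was called higher in CPN-/- CRY1 (Klf9) and 1 lower (Tsc22d3), where 7.72% and 8.57% of tested genes were called (16.3% in all). At an unadjusted p under 0.05 edgeR found the same count of 2, against 30.8% of tested genes. The libraries of Fkbp5, Klf9 and Dusp1 in CPN-/- CRY1 all lay above those of CPN-/- CRY2, and those of Tsc22d3 below, so that 3 of 6 lay wholly above and 1 wholly below. Over all tested genes these shares were 36.4% above and 36.9% below, 73.3% together. Against CPN-/-, the CPN-/- CRY1 libraries lay wholly above for 2 of 6 members (Nr3c1 and Dusp1) and wholly below for 2 (Tsc22d3 and Fkbp5), with background shares of 32.9% and 34.0%, 66.9% together. Those of CPN-/- CRY2 lay wholly above for the same 2 and wholly below for 3 (Tsc22d3, Fkbp5 and Klf9), with background shares of 28.0% and 27.2%, 55.1% together. With 2 libraries against 2, the smallest exact permutation p is 0.333, so that absence of overlap alone cannot pass the threshold.

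Per kilobase of merged exon, Tsc22d3 and Sgk1 were the most abundant members in CPN-/- cells at 48.8 and 43.8 CPM per kb, and their libraries overlapped. Dusp1, Nr3c1 and Fkbp5 followed at 13.3, 12.8 and 12 CPM per kb and were not separated either, and Klf9 was lowest of the tested members at 2.49 CPM per kb. In CPN-/- CRY1 cells Sgk1 at 37.9 and Dusp1 at 32.5 CPM per kb overlapped at the top. Tsc22d3 at 18.1 and Nr3c1 at 17.1 CPM per kb overlapped next, above Fkbp5 at 10.2 and Klf9 at 2.91 CPM per kb. In CPN-/- CRY2 cells the libraries of neighboring genes did not overlap, in the order Sgk1 at 41.7, Tsc22d3 at 30.9, Dusp1 at 21, Nr3c1 at 17.3, Fkbp5 at 9.39 and Klf9 at 1.80 CPM per kb.

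The promoters of these genes were read from RefSeq on GRCm38.p6 (mm10) to show where the receptor's own motif occurs among them. Start sites were at hand for 6 of the 8 genes, 13 in all. None was at hand for Nr3c1 or Zbtb16, so their promoters were not searched. This does not mean that RefSeq lists no start site for them. Each window ran from 250 bases before a start site to 50 bases after it and was searched on both strands for the receptor palindrome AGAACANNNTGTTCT, for its hexamer TGTTCT, for the E-box CACGTG bound by CLOCK-BMAL1, and for the variant CACGTT. Positions count from the start site and give the first base of the match. The palindrome was present at -189 of Sgk1 start site 5, in a window that also held an E-box overlapping a further hexamer, and it occurred in 3 of 32851 mouse windows (0.00913%). The hexamer alone occurred at -185 of Tsc22d3 start site 1 and at Sgk1 start sites 1 and 4, against 19.0% of all windows. An E-box occurred at -169 of Fkbp5 and at -126 of Dusp1, against 7.15% of all windows, and the variant, present in 4.68% of all windows, in none of the 13. The windows of Klf9 and Hsd11b1 and the remaining ones of Tsc22d3 and Sgk1 held no match. The 4 stretches below are the 250 bases before the start, read 5′ to 3′ on the strand of the gene with motif matches in capitals. Tsc22d3 and Dusp1 are shown because their mRNA changed, and Fkbp5 and Sgk1 were added after the search because they held a match. They lie at chrX:140600523-140600772 (reverse) for Tsc22d3, chr17:28486150-28486399 (reverse) for Fkbp5, chr10:21993640-21993889 (forward) for Sgk1 and chr17:26508473-26508722 (reverse) for Dusp1.
Tsc22d3: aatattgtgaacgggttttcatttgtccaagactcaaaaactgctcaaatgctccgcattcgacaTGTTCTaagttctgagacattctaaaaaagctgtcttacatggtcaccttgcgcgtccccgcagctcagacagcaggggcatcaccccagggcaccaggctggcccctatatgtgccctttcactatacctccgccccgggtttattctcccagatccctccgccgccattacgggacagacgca
Fkbp5: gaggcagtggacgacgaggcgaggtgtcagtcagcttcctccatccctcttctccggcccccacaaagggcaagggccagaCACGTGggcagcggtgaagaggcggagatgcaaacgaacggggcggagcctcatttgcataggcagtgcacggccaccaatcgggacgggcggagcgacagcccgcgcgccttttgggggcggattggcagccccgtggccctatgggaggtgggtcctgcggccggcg
Sgk1: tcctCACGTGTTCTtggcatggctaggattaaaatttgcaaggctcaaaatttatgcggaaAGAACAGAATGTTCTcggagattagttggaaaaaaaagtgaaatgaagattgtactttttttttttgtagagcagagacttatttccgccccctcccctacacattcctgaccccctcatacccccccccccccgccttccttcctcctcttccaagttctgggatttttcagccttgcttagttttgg
Dusp1: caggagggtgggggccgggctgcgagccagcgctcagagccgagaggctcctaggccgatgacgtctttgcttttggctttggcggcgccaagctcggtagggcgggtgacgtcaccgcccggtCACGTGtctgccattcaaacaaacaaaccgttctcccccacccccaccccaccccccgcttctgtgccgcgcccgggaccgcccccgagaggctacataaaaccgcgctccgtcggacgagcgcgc

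**Figure D3:**
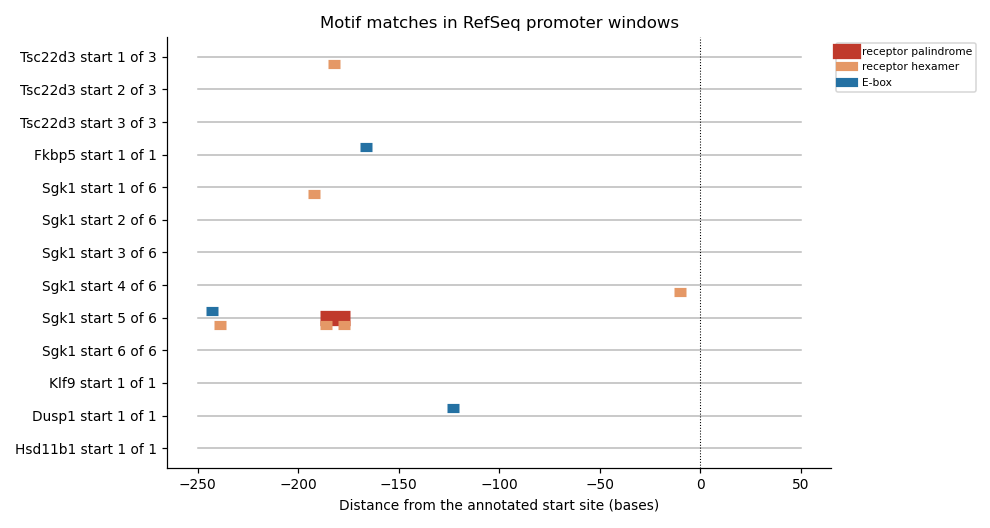
Motif matches by distance in bases from the annotated start site in the 13 windows of 6 genes, each window a gray line. The palindrome lies in a window of Sgk1, a single hexamer in a window of Tsc22d3 and an E-box in the window of Dusp1.

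Within these windows the palindrome occurred only at Sgk1, which was not called. Of the members called in some comparison, Tsc22d3 had a hexamer, Dusp1 an E-box and Klf9 no match. Sequence farther from the start sites was not searched, and a relation of motifs to the mRNA differences was not tested. A match of letters is a description, and binding was not measured here.

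The receptor complex needs chaperones to bind hormone and co-regulators to act on chromatin. Of 14 such genes, all tested, Fkbp4 was the only one called in CPN-/- CRY1 and none was called in CPN-/- CRY2. Over all tested genes 24.3% and 6.66% were called. Fkbp4, which encodes the co-chaperone FKBP52 that favors receptor activity, had 325 and 397 CPM in CPN-/-, 209 and 211 CPM in CPN-/- CRY1 and 273 and 286 CPM in CPN-/- CRY2. Relative to CPN-/-, Fkbp4 had a log2 fold change of -0.78 (SE 0.12, adjusted p = 0.006) in CPN-/- CRY1 and -0.37 (SE 0.12, adjusted p = 0.13) in CPN-/- CRY2, and the lines did not overlap. The histone acetyltransferase gene Crebbp, at 1.07 and 0.58, the coactivator gene Ncoa2, at 0.66 and 0.47, and the chaperone gene Hsp90ab1, at -0.28 and -0.23, did not pass. The medians of the list were 0.16 and 0.08, against -0.01 over all tested genes. At an unadjusted p under 0.05 the edgeR test found 4 and 2 of the 14, against 40.3% and 24.4% of all tested genes. DESeq2 called 3 and 0, against 18.5% and 6.4% of the 19741 genes to which it gave a p-value. Those include genes without an adjusted p, which could not be called, so the shares are lower limits. With the length trend removed, 43.3% of all tested genes were called in CPN-/- CRY1. Calls rose to 6 in CPN-/- CRY1 with the length trend removed, and to 12 and 13 without CPN-/- replicate 1, when the spread comes from the CRY lines alone. Over all tested genes 63.0% and 56.4% were called there. Without CPN-/- replicate 2 the calls rose too in both comparisons, as did those over all tested genes. Without either CPN-/- CRY1 library the Fkbp4 call, the only one of this list, was lost.

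Of 16 further genes that glucocorticoids induce in other cells, 15 were tested (Angptl4 was too low), and they moved in both directions. In CPN-/- CRY1, 7 were called lower and 3 higher, and in CPN-/- CRY2 4 were called lower and 3 higher, with medians of -0.26 and -0.27. Over all tested genes 13.1% were called lower and 11.2% higher with CRY1, and 4.08% and 2.58% with CRY2. Nfkbia, Mt2, Cebpd and Glul were called lower in both lines, the last 2 of them named after their values were seen. Among those lower in both lines were Nfkbia, the inhibitor of NF-kappaB, at -1.26 (SE 0.10, adjusted p = 0.00051) and -1.35 (SE 0.10, adjusted p = 0.00086), and the metallothionein gene Mt2, at -1.07 (SE 0.16, adjusted p = 0.006) and -1.85 (SE 0.17, adjusted p = 0.0019). Ddit4, an inhibitor of mTORC1 signaling, had 138 and 152 CPM in CPN-/-, 49.5 and 42.6 CPM in CPN-/- CRY1 and 121 and 126 CPM in CPN-/- CRY2. Ddit4 fell in CPN-/- CRY1 at -1.65 (SE 0.11, adjusted p = 0.00038), was at -0.23 in CPN-/- CRY2 (SE 0.11, adjusted p = 0.25), and differed between the CRY lines by -1.42 (SE 0.11, adjusted p = 0.00064). Anxa1, which encodes the anti-inflammatory protein annexin A1, rose from 1030 and 1260 CPM in CPN-/- to 2490 and 2470 CPM in CPN-/- CRY1 and was at 1080 and 1100 CPM in CPN-/- CRY2. Relative to CPN-/-, Anxa1 had log2 fold changes of 1.12 (SE 0.13, adjusted p = 0.002) and -0.07 (SE 0.12, adjusted p = 0.74), with a difference between the CRY lines of 1.19 (SE 0.13, adjusted p = 0.0017). Like Tsc22d3, Ddit4 was thus lower in CPN-/- CRY1 than in both other lines, whereas Anxa1 was higher. Calls of this list in CPN-/- CRY2 rose without either CPN-/- library, as did those over all tested genes. Without either CPN-/- CRY2 library they fell, again as over all tested genes, and every higher call was lost. Those in CPN-/- CRY1 fell without either CPN-/- CRY1 library, as did the calls over all tested genes.

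**Figure D4:**
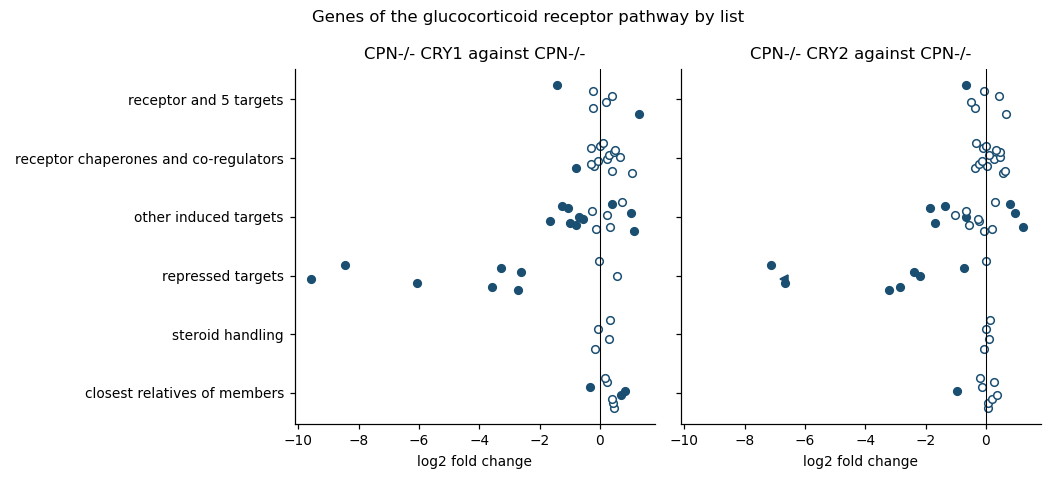
Log2 fold change of each tested gene against CPN-/-, by gene list, in CPN-/- CRY1 (left) and CPN-/- CRY2 (right). Filled points had an adjusted p under 0.05, and the triangle is a lower bound on the size of the fall of Cxcl5, at 0 counts in CPN-/- CRY2. Nos2, and Cxcl5 with CRY1, are drawn by their ratio of summed counts, and the repressed targets lie farthest to the left with medians of -3.29 and -2.86.

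Of 12 inflammatory genes that the receptor represses in many cells, 9 were tested, since Il1b, Tnf and Csf2 were too low. In CPN-/- CRY1 7 were called lower and 0 higher, and in CPN-/- CRY2 8 and 0, against 13.1% and 4.08% of all tested genes called lower. DESeq2 called 7 lower and 0 higher in each, where it called 1849 and 666 of 19741 genes lower. At an unadjusted p under 0.05 edgeR found 7 and 8, against 40.3% and 24.4% of all tested genes. The 8 calls became 5 without CPN-/- CRY2 replicate 1, and 6 with only the 4 libraries compared or without any other CRY library. The chemokine gene Cxcl1 fell by 6.07 (SE 0.20, adjusted p = 5.8e-05) and 6.66 (SE 0.22, adjusted p = 0.00011) on the log2 scale, from 65.5 and 69.9 CPM in CPN-/-. The chemokine gene Ccl7 fell in both, at -3.57 (SE 0.20, adjusted p = 0.00021) and -2.86 (SE 0.19, adjusted p = 0.0007). Nos2, the inducible nitric oxide synthase, and the chemokine gene Cxcl5 dropped to 3 counts or fewer per library. The ratio of summed counts for Nos2 in CPN-/- to those with CRY1 was 348 (exact 95% interval 119 to 1690, counting error only), with 1 and 2 counts left, and to those with CRY2 it was 141 (64.5 to 385), with 3 and 3 counts left. For Cxcl5 it was 767 (137 to 30300) with CRY1, on 1 count in the 2 libraries. With CRY2 Cxcl5 had 0 counts and was at least 103-fold lower, taking 3 counts per library as the floor. Ptgs2, which encodes cyclooxygenase 2 and is named after its values were seen, was the member called in neither comparison, at -0.02 and 0.01. Il6, also named afterwards, was 6.78-fold higher in CPN-/- CRY1 than in CPN-/- CRY2 (log2 fold change 2.76, SE 0.40, adjusted p = 0.0061), with 40 and 45 counts against 3 and 7. The list was chosen with earlier results of these libraries known, so its direction is not independent evidence.

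Other genes of steroid handling gave no call in the edgeR fit used for the members. The mineralocorticoid receptor gene Nr3c2 and the glucocorticoid-inactivating enzyme gene Hsd11b2 were too low, and of the 4 tested genes (Srd5a1, Abcb1a, Abcb1b and H6pd) edgeR called 0 in each comparison with CPN-/-, as did DESeq2, with 0 at an unadjusted p under 0.05. Srd5a1, which encodes a steroid reductase, came nearest with 0.33 (SE 0.15, adjusted p = 0.14) in CPN-/- CRY1. Without CPN-/- replicate 1 the calls were 2 in each comparison, and without replicate 2 they were 3 and 1.

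Among 9 close relatives of the members, 8 were tested (Sgk2 was too low), and in CPN-/- CRY1 Sgk3 and Klf13 were called higher and Tsc22d1 lower. In CPN-/- CRY2 Sgk3 was called lower and no relative higher, with 2 at an unadjusted p under 0.05 by edgeR and the same counts of 0 and 1 by DESeq2. The shares called over all tested genes were 24.3% in CPN-/- CRY1 and 6.66% in CPN-/- CRY2. Sgk3, a kinase gene related to Sgk1, had 11.4 and 10.5 CPM in CPN-/-, at least 19.4 CPM in both CPN-/- CRY1 libraries and 5.55 and 5.63 CPM in CPN-/- CRY2. Relative to CPN-/-, Sgk3 had log2 fold changes of 0.84 (SE 0.11, adjusted p = 0.0035) and -0.97 (SE 0.12, adjusted p = 0.005), and the CRY lines differed by 1.82 (SE 0.12, adjusted p = 0.00035). Sgk3 thus differed from CPN-/- in opposite directions in the CRY lines, unlike Sgk1, whose lines overlapped. Tsc22d1, of the same family as Tsc22d3, fell by 0.34 (SE 0.09, adjusted p = 0.04) in CPN-/- CRY1 and was at -0.12 (SE 0.09, adjusted p = 0.43) in CPN-/- CRY2. Klf13 was at 0.70 (SE 0.12, adjusted p = 0.0099) and 0.37 (SE 0.12, adjusted p = 0.14), and the phosphatase gene Dusp5 at 0.42 (SE 0.16, adjusted p = 0.098) and 0.21 (SE 0.17, adjusted p = 0.45). With the length trend removed, the 3 relatives called in CPN-/- CRY1 became 5 and the 1 in CPN-/- CRY2 became 2. The genes called in all then rose too, to 5399 and 2492 of 12478. Calls among the relatives also rose without CPN-/- replicate 1, and in CPN-/- CRY2 without CPN-/- replicate 2, as did those over all tested genes. Without CPN-/- CRY1 replicate 1 or replicate 2 the 3 calls became 1 and 0, and without either CPN-/- CRY2 library the Sgk3 call there was lost. The Tsc22d1 call was also lost with a replicate block, with no filter but 1 count, and with only the 4 libraries compared. It was lost too without either CPN-/- CRY2 library.

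The adipocyte markers, which were listed because fibroblasts can turn adipogenic and glucocorticoids favor that step, had summed levels of 8.74 to 12.1 CPM in CPN-/-, 0.747 to 0.778 CPM in CPN-/- CRY1 and 1.85 to 2.39 CPM in CPN-/- CRY2. Fabp4 accounted for these sums, since Adipoq and Plin1 did not exceed 3 counts in any library. These levels were lowest in the line with the lowest Tsc22d3, and their part in that difference was not tested.

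**Figure D5:**
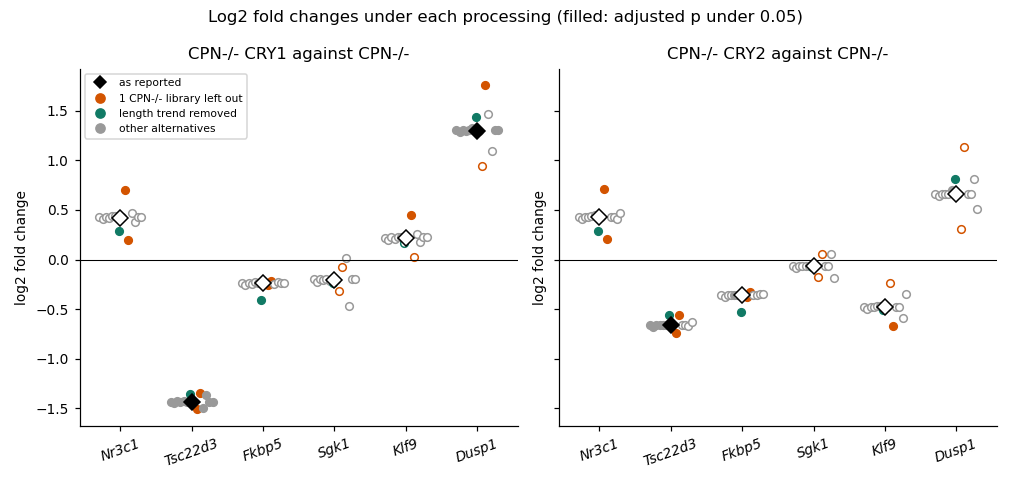
Log2 fold change of the 6 tested genes as reported (black diamonds) and under each alternative processing (circles), filled where the adjusted p was under 0.05, for CPN-/- CRY1 (left) and CPN-/- CRY2 (right) against CPN-/-. Tsc22d3 stays between -1.51 and -1.34 on the left and between -0.74 and -0.56 on the right, while Nr3c1 ranges from 0.20 to 0.71 and Sgk1 crosses 0.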

How the data were processed

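The authors aligned stranded paired-end reads to mm10 with RNA STAR and counted reads per gene with featureCounts. The deposited values are whole counts for 27179 NCBI Gene identifiers in 1 table per library, with no normalization. The annotation, the strand setting and the handling of multiply mapped reads are not given in the sources used here. RefSeq symbols were found for 25275 identifiers, and exon lengths came from GENCODE.

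Genes were kept by filterByExpr (minimum count 10, minimum total 15), leaving 14069. A quasi-likelihood model in edgeR 4.0.16 (R 4.3.3), with TMM factors (0.991 to 1.01), robust dispersions and cell line as its sole term, was fitted to all 6 libraries. Tests were two-sided, with Benjamini-Hochberg adjusted p over all 14069 genes and a threshold of 0.05. The standard error was the absolute log2 fold change over the square root of F. The steps were tested on simulated data.

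Alternatives were DESeq2 1.42.0 (its Wald test and its size factors), other filters, a replicate term, only the 4 libraries compared, each library left out, and removal of each library's trend with merged exon length by loess (span 0.5). After seeing the data, the calls in the other gene lists were recounted under the same alternatives.

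All 8 members were named, with at most 4 genes of lowest adjusted p per further list and those too low to test. Cebpd, Glul, Ptgs2 and Il6 were named in addition, after their values were seen. The members and lists were chosen with earlier results of these data known. No exon of a member overlapped another gene or shared at least 95% identity over 150 bases with one. The study calls the vector lentiviral in one place and retroviral in another. The 2 libraries of a line are 2 RNA preparations, so p-values measure that spread.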

Additional observations from a re-analysis of the deposited data

Results flagged for a closer look

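Between the CPN-/- CRY1 and CPN-/- CRY2 lines, the effects on 2 of the 6 tested members differed by a direct test, where 16.3% of all tested genes were called. CPN-/- CRY1 held less Tsc22d3 mRNA than CPN-/- CRY2 (log2 fold change -0.77, edgeR, adjusted p = 0.0046), and both CPN-/- CRY1 libraries lay below both CPN-/- CRY2 libraries. Klf9 was higher in CPN-/- CRY1, with a log2 fold change of 0.69 (edgeR, adjusted p = 0.039), again with no overlap of the libraries. The median over the tested genes of the Klf9 chromosome was 0.46 in this comparison. Groups of 2 libraries are too small for a test of single outlying libraries.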

How the results depend on the processing

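Of 252 values of single members under the alternatives with a test, 210 kept their direction and their side of the threshold. The number of members called in CPN-/- CRY1 against CPN-/- was 2, and 4 with the length trend removed, with a range of 1 to 4 when a library was left out. In CPN-/- CRY2 against CPN-/- it was 1, and 2 with DESeq2's Wald test, 5 with the length trend removed and 0 with only the 4 libraries compared, with a range of 0 to 4 when a library was left out. Between the CRY lines it was 2, with a range of 0 to 2, and it was 0 without any 1 CRY library. The genes called in CPN-/- CRY1 numbered 3423, and 5399 with the length trend removed and 1798 with only 4 libraries (663 to 8980 with a library left out). In CPN-/- CRY2 they numbered 937, and 583 with at least 10 counts in every library, 2492 with the length trend removed and 473 with only 4 libraries (199 to 8046). Between the CRY lines they numbered 2292, and 4425 with the length trend removed and 6838 with only 4 libraries (475 to 6897). Calls rose where a CPN-/- library was left out, since the spread then came from the CRY lines, and the lone library was assumed to vary like them.

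A direction turned in 7 of these values, all close to 0. For Sgk1 in CPN-/- CRY1 the log2 fold change was 0.02 without CPN-/- CRY1 replicate 1, and leaving out a library gave -0.47 to 0.02. For Sgk1 in CPN-/- CRY2 the value was 0.06 without CPN-/- replicate 2 or CPN-/- CRY2 replicate 1, with a range of -0.19 to 0.06. Between the CRY lines Sgk1 was at 0.08 without CPN-/- CRY1 replicate 1 (range -0.41 to 0.08). Nr3c1 was at 0.00 with DESeq2, 0.04 without CPN-/- CRY1 replicate 1 and 0.02 without CPN-/- CRY2 replicate 1 (range -0.06 to 0.04). Less the chromosome median, which has no test, the sign also turned for Klf9 in CPN-/- CRY1 (0.22 to -0.10) and for Sgk1 between the CRY lines (-0.14 to 0.02). The cause was not tested.

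The lines share replicate numbers, but samples share only a number: the correlations of the replicate differences across 14069 genes were -0.08, 0.14 and -0.03 over the 3 comparisons. With a replicate block, 2 members were called in CPN-/- CRY2 against CPN-/-, adding Dusp1 at 0.70 (edgeR, adjusted p = 0.032), and Dusp1 was also called between the CRY lines at 0.63 (adjusted p = 0.026). The depth limits Zbtb16 and Hsd11b1.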
